A study of Mus musculus with 9 samples.

Results

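The genes described here are the annexins Anxa1, Anxa2, Anxa4, Anxa5, Anxa6, Anxa7 and Anxa11, the S100 proteins S100a10 and S100a11, and dysferlin (Dysf). They were named with earlier results of these data known, by a rule that uses no measured value, and are 10 of the 55487 genes in the count table. All 10 were among the 14851 genes with enough counts to be tested. Polyadenylated RNA of whole gastrocnemius, a calf muscle, was sequenced from wild-type mice that the labels give as male C57BL/6 and the study's text as C57BL/6J. The Control group (n = 4) stayed in conventional cages, the Unloading group (n = 2) was taken at day 10 of hindlimb unloading, in which the tail is held up so that the hind legs carry no weight, and the Reloading group (n = 3) went through the same unloading and was taken at day 1 after the hind legs bore weight again. The methods describe females for the unloading procedure, whereas Xist had at most 5 counts and Y-linked genes at least 2003 counts in each library; no age is given. Nothing in the labels states that the libraries of a group came from separate animals, so the p-values measure the spread between these libraries.

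Annexins are cytosolic proteins that bind phospholipids when calcium rises, and at a tear in the plasma membrane of a muscle fibre they gather as a cap within moments of calcium entry. Dysferlin, a membrane-anchored protein with several C2 domains, is needed for the resealing of such tears, and its loss causes limb-girdle muscular dystrophy and Miyoshi myopathy. S100a10 and S100a11 are small proteins of the EF-hand family that bind the tail of annexin A2 and of annexin A1, respectively, and can bridge annexin-coated membranes.

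Each library held between 9252443 and 19612101 read pairs in genes, and the 10 genes had between 63 pairs (S100a11 in Control 1) and 4718 pairs (Anxa6 in Reloading 3). Levels are given as CPM, counts per 1000000 counts, after trimmed mean of M-values (TMM) scaling of the libraries. With library totals in place of TMM, the median difference over all tested genes on the log2 scale moved from 0.03 to 0.27 in Reloading against Unloading and from 0.01 to 0.25 in Reloading against Control, so each change is relative to the TMM scaling. The libraries were of skeletal muscle, since 8 muscle fibre genes (Ckm, Acta1 and others) summed to at least 109751 CPM in each library. These genes do not tell gastrocnemius from other muscles. Control 2 and Reloading 1 held skin transcripts, with keratinocyte genes summing to 309 and 140 CPM against 2.75 to 4.46 CPM elsewhere. In Control 2, 8 of the 10 genes were at their highest Control level. No such share over all tested genes is given, and the part of the skin transcripts was not tested.

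In Reloading against Unloading, 7 of the 10 genes were higher and 0 were lower with an adjusted p under 0.05 in edgeR's quasi-likelihood test, whereas 18.5% of all tested genes were higher and 19.0% lower. The genes called were Anxa2, Dysf, Anxa5, S100a11, S100a10, Anxa4 and Anxa6, in falling order of change, and the median log2 fold change (log2FC) of the 10 genes was 0.61 against 0.03 for all tested genes. Anxa1, Anxa7 and Anxa11 were not called, whereas with library totals only Anxa7 (0.22, adjusted p 0.0451) and Anxa11 (0.31, adjusted p 0.0142) were called higher as well. In Unloading against Control, Anxa4 and Anxa7 were higher and 0 genes were lower, against 4.40% and 5.50% of all tested genes. In Reloading against Control, 9 genes were higher and 0 were lower, against 22.1% and 21.3% of all tested genes, and the gene not called was Anxa1. The count of lower genes was 0 in all 3 comparisons also at an unadjusted p under 0.05 and with DESeq2. The comparisons share libraries, so their values are set side by side and do not count as separate evidence.

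**Figure D1:**
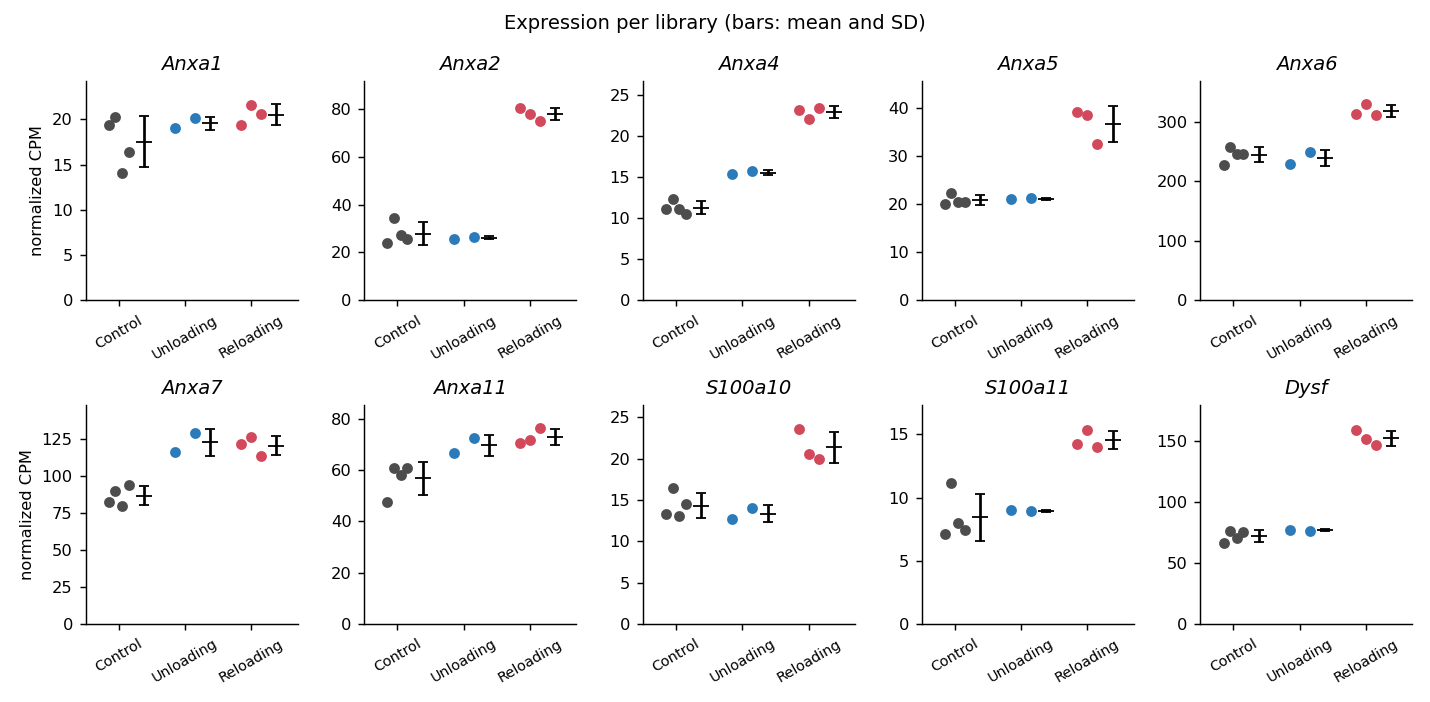
Normalized expression (CPM, axes from 0) of each gene in every library, by group, with the mean and SD (n = 4, 2 and 3) beside the points. Anxa2 and Dysf stand apart in the 3 Reloading libraries, Anxa4 rises in steps, Anxa7 is higher in both Unloading and Reloading, and the Anxa1 groups overlap.

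Upstream sequences are shown for 3 genes with contrasting starts among those that rose, Anxa2 and S100a11 with motif matches and Dysf without. They were taken from RefSeq (build GRCm38.p6), which gave a promoter window of 250 bases before to 50 bases after the start for 8 of the 10 genes, not for Anxa6 and S100a10. Only the bases outside the annotated gene are printed, on the plus strand, and capitals mark matches to the AP-1 motif TGANTCA.
Anxa2 (chr9:69453433-69453619): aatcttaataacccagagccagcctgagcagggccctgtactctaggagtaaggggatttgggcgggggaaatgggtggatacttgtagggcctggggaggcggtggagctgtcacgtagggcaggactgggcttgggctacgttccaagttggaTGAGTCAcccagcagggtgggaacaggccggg
S100a11 (chr3:93520246-93520487): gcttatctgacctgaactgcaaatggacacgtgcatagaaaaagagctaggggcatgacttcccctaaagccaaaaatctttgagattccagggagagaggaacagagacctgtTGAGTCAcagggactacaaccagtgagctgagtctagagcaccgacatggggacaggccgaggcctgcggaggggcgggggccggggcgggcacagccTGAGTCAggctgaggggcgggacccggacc
Dysf (chr6:84008348-84008589): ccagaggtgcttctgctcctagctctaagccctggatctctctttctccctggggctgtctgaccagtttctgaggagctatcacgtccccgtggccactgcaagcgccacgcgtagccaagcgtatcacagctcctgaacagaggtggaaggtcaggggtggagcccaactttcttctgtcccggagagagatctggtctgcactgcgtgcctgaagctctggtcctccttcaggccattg
The match in Anxa2 begins 95 bases before its RefSeq start, and those in S100a11 begin 136 and 38 bases before. No other gene of the 8 held an AP-1 match, among them Anxa4 and Anxa5, which also rose. Dysf had a further start inside the annotated gene, whose window held no match and is not printed. Among the 5 motifs searched, all of which read the same on both strands and do not overlap, the windows of the 8 genes also held a heat shock element (GAANNTTC) in Anxa11, 243 bases before the start, and a CArG box in Anxa5, 26 bases after it. The cAMP response element (TGACGTCA) and the glucocorticoid response element matched in none of them. Of 32851 RefSeq promoter windows of the mouse, 7.81% held the AP-1 motif, 7.86% the heat shock element, 1.63% the CArG box, 1.79% the cAMP response element and 0.00913% the glucocorticoid response element. A match describes the letters in the window and nothing about binding.

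Dysferlin rose 1.98-fold on reloading. Dysf (ENSMUSG00000033788, GRCm38 chromosome 6, 84008590 to 84211060, plus strand, 62 exon blocks) had 66.5, 76.4, 70.4 and 75.0 CPM in the Control libraries, 77.3 and 76.1 CPM in Unloading, and 159, 152 and 146 CPM in Reloading. All 3 Reloading libraries lay above the other 6, while Unloading sat at the upper edge of Control. The log2FC was 0.99 ± 0.081 (SE) in Reloading against Unloading (adjusted p 5.16e-07), 0.09 ± 0.076 in Unloading against Control (adjusted p 0.500) and 1.08 ± 0.066 in Reloading against Control (adjusted p 1.36e-08).

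Anxa2, the annexin that binds S100a10 and also serves as a surface site for plasminogen activation, had the largest change of the 10 genes. Anxa2 (ENSMUSG00000032231, chromosome 9, 69453620 to 69491795, plus strand) had 24.02, 34.6, 27.4 and 25.5 CPM in Control, 25.8 and 26.6 CPM in Unloading, and 80.3, 78.0 and 75.1 CPM in Reloading. The lowest Reloading library was above the highest Control library, and the Unloading values lay within the Control range. On reloading it rose 2.97-fold against Unloading, by 1.57 ± 0.12 on the log2 scale (SE, adjusted p 2.68e-07), and its log2FC was -0.09 ± 0.12 in Unloading against Control (adjusted p 0.657) and 1.47 ± 0.097 in Reloading against Control (adjusted p 2.81e-08). The skin transcripts of Control 2 coincided with its highest Control value, and their part in that value was not tested.

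Annexin A5, which forms lattices on exposed phosphatidylserine, moved in the same way at a smaller size. Anxa5 (ENSMUSG00000027712, chromosome 3, 36448923 to 36475894, minus strand) had 19.96, 22.4, 20.5 and 20.4 CPM in Control, 20.96 and 21.3 CPM in Unloading, and 39.1, 38.5 and 32.4 CPM in Reloading. The Reloading libraries were apart from all others, with Reloading 3 the lowest of them. The change was 1.73-fold in Reloading against Unloading (log2FC 0.79 ± 0.10 SE, adjusted p 3.38e-05), and the log2FC was 0.02 in Unloading against Control (adjusted p 0.929) and 0.81 in Reloading against Control (adjusted p 2.92e-06).

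Annexin A6, the largest annexin and a component of the repair cap, was the most abundant of the 10 genes per length and rose least of the 7 that were called. Anxa6 (ENSMUSG00000018340, chromosome 11, 54979108 to 55033445, minus strand) had 228, 258, 246 and 246 CPM in Control, 230.02 and 249 CPM in Unloading, and 313, 330.1 and 312 CPM in Reloading. Reloading did not overlap with the other groups, and Unloading lay within the Control range. The log2FC was 0.41 ± 0.077 (SE) in Reloading against Unloading (1.33-fold, adjusted p 0.000711), -0.03 in Unloading against Control (adjusted p 0.824) and 0.38 in Reloading against Control (adjusted p 0.000198).

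Annexin A4, best known from epithelia and secretory membranes, was the gene that rose in both steps. Anxa4 (ENSMUSG00000029994, chromosome 6, 86736840 to 86793584, minus strand) had 11.2, 12.4, 11.1 and 10.6 CPM in Control, 15.3 and 15.7 CPM in Unloading, and 23.1, 22.1 and 23.4 CPM in Reloading. The groups did not overlap. It was 1.38-fold higher in Unloading than in Control (log2FC 0.46 ± 0.10 SE, adjusted p 0.0115), 1.47-fold higher on reloading, against Unloading (0.56 ± 0.10, adjusted p 0.000675) and 2.03-fold higher in Reloading than in Control (1.02 ± 0.089, adjusted p 4.88e-07). Its call in Unloading against Control was lost without Unloading 1 (0.48, adjusted p 0.107) and without Unloading 2 (0.44, adjusted p 0.0593), where the remaining Unloading library is assumed to vary like the other groups.

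Annexin A7 (synexin), which promotes membrane fusion in calcium-dependent secretion, was higher after unloading and had a log2FC of -0.03 ± 0.087 (SE, adjusted p 0.832) on reloading. Anxa7 (ENSMUSG00000021814, chromosome 14, 20455260 to 20480133, minus strand) had 82.9, 90.3, 80.02 and 93.9 CPM in Control, 116 and 129.7 CPM in Unloading, and 122, 127 and 114 CPM in Reloading. Unloading and Reloading overlapped with each other and lay above Control. It was 1.42-fold higher in Unloading than in Control (log2FC 0.50 ± 0.082 SE, adjusted p 0.00251) and 0.48 higher on the log2 scale in Reloading than in Control (adjusted p 0.0001). The next gene upstream on the same strand, Mss51, lies 2734 bases away and moved more, by 2.38 in Unloading against Control (adjusted p 0.000151) and by -1.78 in Reloading against Unloading (adjusted p 0.000167) on the log2 scale. Its part in the Anxa7 counts was not tested.

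Annexin A11, a relative of annexin A7 with a long amino-terminal region that also tethers RNA granules to lysosomes, had 47.5, 60.8, 58.2 and 60.9 CPM in Control, 66.6 and 72.6 CPM in Unloading, and 70.8, 71.7 and 76.3 CPM in Reloading. Anxa11 (ENSMUSG00000021866, chromosome 14, 25842156 to 25886804, plus strand) was higher in Reloading than in Control (log2FC 0.36, adjusted p 0.00291). The Unloading libraries also lay above all 4 Control libraries, with a log2FC of 0.29 ± 0.094 (SE, adjusted p 0.0634), and Reloading overlapped with Unloading (0.07, adjusted p 0.627). With no filter on low counts or with a robust fit, the adjusted p of Unloading against Control was 0.00978 and 0.0405, and with a replicate block by title or description number it was 0.0416 and 0.0105. Of the 50-base stretches of its transcripts 16.2% also occur in other annotated genes, mainly the pseudogene Gm2260, which had 0 counts.

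Annexin A1, the glucocorticoid-regulated annexin known from the resolution of inflammation and from membrane repair, was not called in any comparison. Anxa1 (ENSMUSG00000024659, chromosome 19, 20373428 to 20390944, minus strand) had 19.4, 20.2, 14.1 and 16.4 CPM in Control, 19.1 and 20.1 CPM in Unloading, and 19.3, 21.6 and 20.6 CPM in Reloading. All 3 groups overlapped, with the spread of Control the widest. The log2FC was 0.07 ± 0.13 (SE, adjusted p 0.725) in Reloading against Unloading, 0.17 ± 0.13 (adjusted p 0.436) in Unloading against Control and 0.24 ± 0.11 (adjusted p 0.110) in Reloading against Control. The last of these passed the threshold without Control 2 (0.31, adjusted p 0.0348), without Control 2 and Reloading 1 together (0.36, adjusted p 0.0388) and with library totals only (0.48, adjusted p 0.00328).

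Both S100 partners of the annexins were called higher on reloading. S100a10 (ENSMUSG00000041959, chromosome 3, 93555080 to 93564643, plus strand), which differs from most S100 proteins in that it does not bind calcium, had 13.3, 16.4, 13.1 and 14.5 CPM in Control, 12.7 and 14.04 CPM in Unloading, and 23.5, 20.5 and 19.9 CPM in Reloading. S100a11 (ENSMUSG00000027907, chromosome 3, 93520488 to 93526287, plus strand), a calcium-binding partner of annexin A1, had 7.10, 11.2, 8.002 and 7.46 CPM in Control, 8.98 and 8.91 CPM in Unloading, and 14.3, 15.3 and 13.97 CPM in Reloading. For both, the Reloading libraries were apart from the other 6, and Control 2, which held skin transcripts, was the highest Control library. Against Unloading, S100a10 was 1.59-fold higher in Reloading (log2FC 0.67 ± 0.12 SE, adjusted p 0.000686), and S100a11 was 1.62-fold higher (0.70 ± 0.16, adjusted p 0.00304). In Reloading against Control their log2FC values were 0.57 (adjusted p 0.000419) and 0.77 (adjusted p 0.000292), and in Unloading against Control -0.10 (adjusted p 0.654) and 0.08 (adjusted p 0.809).

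These S100 genes lie next to each other in the same orientation, 28792 bases apart, in the S100 cluster of chromosome 3. The counts of S100a11 are the least certain of the 10, because 41.1% of the 50-base stretches of its transcripts are shared with the pseudogenes Gm12854, Gm7665 and Gm29240, and pairs that align to several places were not counted. Gm12854 had 96 counts over the 9 libraries. The counting did not use strand, and genes annotated over members of the group, such as Gm15475 opposite Dysf, had at most 18 counts in all.

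**Figure D2:**
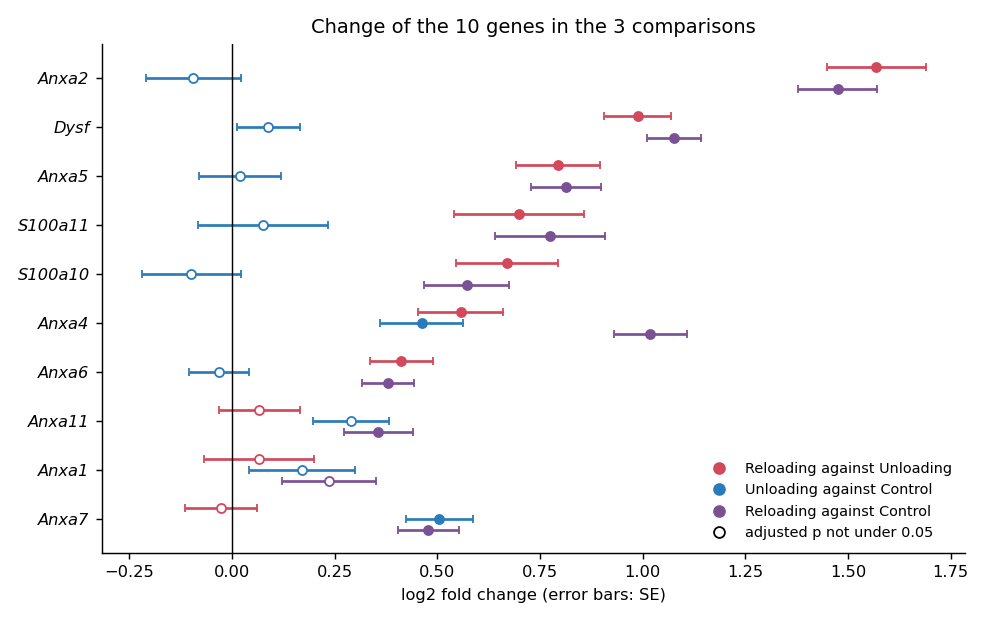
Log2FC with its SE of each gene in the 3 comparisons, filled where the adjusted p was under 0.05. Anxa2 (1.57) and Dysf (0.99) lie furthest to the right in Reloading against Unloading, and Anxa4 (0.46) and Anxa7 (0.50) are the filled points of Unloading against Control.

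Because S100a10 and Anxa2 form a complex, their balance was followed as the ratio of CPM per kb of exon within each library. The ratio was 1.71, 1.46, 1.47 and 1.75 in Control, 1.51 and 1.63 in Unloading, and 0.902, 0.811 and 0.817 in Reloading. Reloading lay below every other library, with a mean of 0.843 ± 0.051 (SD) over 3 libraries against 1.57 ± 0.085 over 2 in Unloading and 1.60 ± 0.154 over 4 in Control. The exact two-sided permutation test gave p = 0.1 against Unloading, the smallest value that 3 against 2 libraries allow, and p = 0.0286 against Control, the smallest that 3 against 4 allow. Adjusted over the 6 tests of both ratios, p was 0.15 in each case. The smallest adjusted p that these 6 tests allow is 0.0857, so no difference could pass the threshold. Unloading and Control overlapped (exact permutation p = 0.867, adjusted 0.933).

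The ratio of S100a11 to Anxa1 moved the opposite way, at a level that rests on the uncertain S100a11 counts. It was 2.09, 3.15, 3.24 and 2.59 in Control, 2.68 and 2.52 in Unloading, and 4.20, 4.04 and 3.86 in Reloading. All Reloading values exceeded the other 6, with means of 4.04 ± 0.168 (SD, n = 3), 2.60 ± 0.111 (SD, n = 2) and 2.77 ± 0.536 (SD, n = 4). The exact permutation p was 0.1 against Unloading and 0.0571 against Control, 0.15 after adjustment for each, and 0.933 for Unloading against Control.

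**Figure D3:**
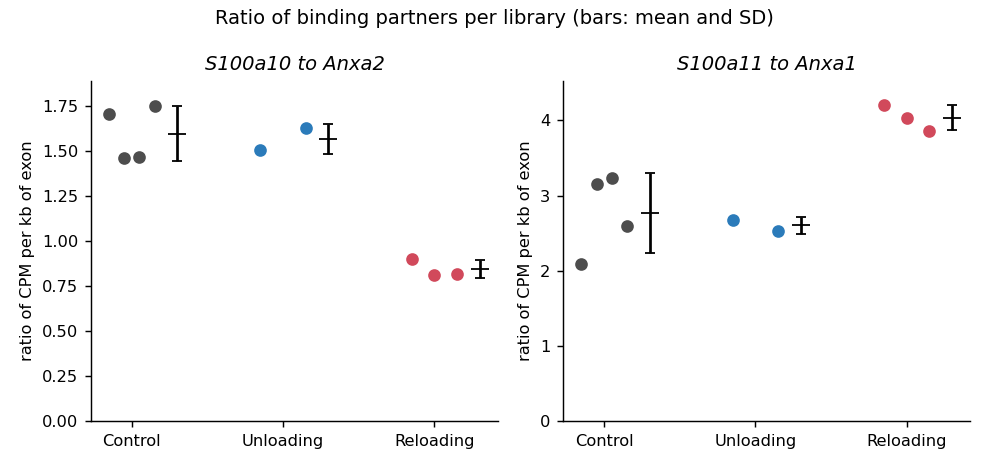
Ratio of CPM per kb of exon of S100a10 to Anxa2 (left) and of S100a11 to Anxa1 (right) in each library, with the mean and SD of each group and axes from 0. In Reloading the left ratio lies between 0.811 and 0.902, below all other libraries, and the right ratio between 3.86 and 4.20, above them.

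Levels of different genes were compared per kb of exon. The full exon length was used also for S100a11 and Anxa11, of whose 50-base stretches 41.1% and 16.2% occur in other genes. Pairs that align to several places were not counted, so the levels and ranks of S100a11 and Anxa11 may be too low. Anxa6 had the highest level in every group, with 83.5 ± 4.29 CPM per kb in the 4 Control libraries, 81.7 ± 4.51 in the 2 Unloading libraries and 109 ± 3.41 in the 3 Reloading libraries (mean ± SD), and it made up 59.9%, 55.2% and 54.4% of the summed level of the 7 annexins. Anxa4 had the lowest level in every group, at 2.43, 3.35 and 4.93 CPM per kb, and Anxa1 was next to lowest. Between these, the Control order was S100a11 (16.5), Anxa7 (14.5), Anxa11 (13.7), S100a10 (11.8), Anxa5 (11.7), Dysf (8.66) and Anxa2 (7.47 CPM per kb). Within this order Anxa5 and Dysf were the only neighbours whose Control libraries did not overlap.

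Anxa2 changed its place most, from rank 8 of the 10 genes in Control and Unloading to rank 3 in Reloading, at 20.9 ± 0.704 CPM per kb (SD, n = 3). Its share of the summed annexin level was 5.36% in Control, 4.74% in Unloading and 10.4% in Reloading. In Reloading, after Anxa6 and S100a11 (28.4 CPM per kb), Anxa2, Anxa5 (20.6), Anxa7 (20.2), Dysf (18.3), Anxa11 (17.6) and S100a10 (17.6 CPM per kb) followed each other with overlapping libraries at each step. The summed level of the 7 annexins was 139 CPM per kb in Control, 148 in Unloading and 200.01 in Reloading.

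**Figure D4:**
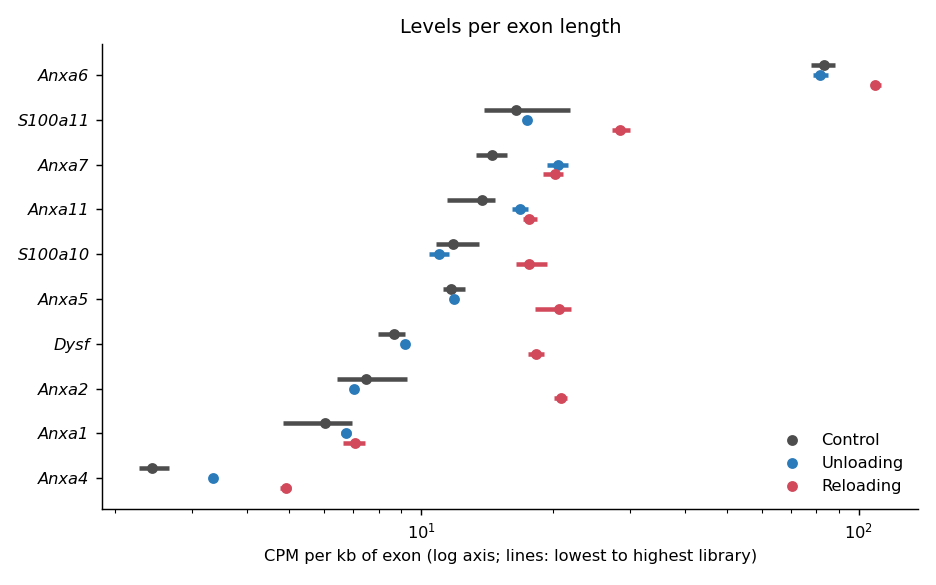
Level of each gene in CPM per kb of exon (log axis) by group, with points at the mean and lines from the lowest to the highest library. Anxa6 lies highest, between 81.7 and 109, Anxa4 lies lowest in all groups, and Anxa2 passes from 7.02 in Unloading to 20.9 in Reloading.

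Whole muscle holds several cell types, and in such bulk samples fewer cells of a type and less RNA per cell cannot be told apart. Several marker lists moved along with the 7 genes in Reloading against Unloading, where 18.5% of all tested genes were higher and 19.0% lower. Of 12 macrophage markers 9 were higher and 0 lower, with a median log2FC of 0.73. Their summed level was 88.5 to 108 CPM in Control, 90.7 to 93.5 in Unloading and 175 to 198 in Reloading. Within this sum Cd68 alone went from a mean of 3.05 CPM in Unloading to 45.9 CPM in Reloading (log2FC 3.93). Of 7 endothelial markers 6 were higher (145 CPM in both Unloading libraries, 255 to 313 in Reloading), as were 5 of 5 smooth muscle markers (97.5 to 101 CPM, then 168 to 190) and 4 of 5 Schwann cell markers (42.1 to 53.9 CPM, then 93.6 to 129.5). In Control these sums were 149 to 172, 112 to 137 and 37.6 to 58.2 CPM. The endothelial Kdr and Vwf and the smooth muscle Smtn were called lower in Unloading than in Control. Smtn was not called in Reloading against Control (log2FC -0.07). Fibroblast markers were higher for 4 and lower for 2 of 9, satellite cell markers higher for 2 of 5, and muscle fibre genes lower for 6 of 8, falling from 154876 to 163087 CPM in Unloading to 109751 to 122435 CPM in Reloading. Neutrophil markers were in sum at most 6.99 CPM in Control, 1.27 in Unloading and 4.83 in Reloading. Of these 8 markers 2 were tested and 0 called, and 0 of the 8 tested keratinocyte markers were called. No marker of these lists was at 0 in all libraries, and the part of these cells in the rise of Anxa2, Dysf, Anxa5 and the others was not tested.

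The genes whose pattern was most like that of Anxa2 were found by the root mean square difference of centred log2 CPM over the 9 libraries, among 9858 genes with a symbol and a mean log2 CPM of at least 2. They were Acta2 (0.109), the actin of smooth muscle, Hspb6 (0.114), a small heat shock protein, Tubb5 (0.114), a beta-tubulin, Rab11fip5 (0.119), an effector of vesicle recycling, and Tpm4 (0.119), a cytoskeletal tropomyosin. Acta2, for instance, had 20.2 to 24.5 CPM in Control, 19.3 and 20.7 CPM in Unloading, and 52.1 to 58.8 CPM in Reloading. The genes most like Anxa1 were Fam3c (0.0542), Nsf (0.0896), Epc1 (0.0907), Selenom (0.0910) and Cadm3 (0.0930), of which Nsf is the ATPase that recycles membrane fusion complexes. Fam3c, the closest, had 7.57 to 11.3 CPM in Control, 10.7 and 10.9 CPM in Unloading, and 10.6 to 11.2 CPM in Reloading. Nsf had 15.005 to 19.1 CPM in Control, 20.9 and 19.8 CPM in Unloading, and 21.5 to 22.6 CPM in Reloading. Its Unloading and Reloading libraries thus lay above Control, whereas the Anxa1 groups overlapped. Genes that change little over the libraries lie close to Anxa1 by this measure.

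Around the 10 genes, a wider list of 68 annexin, S100, ferlin and membrane repair genes was followed, of which 67 were matched and 54 could be tested. In Reloading against Unloading 14 of the 54 were higher and 11 lower, against 18.5% and 19.0% of all tested genes, with a median log2FC of 0.12 against 0.03. With library totals only, 24 were higher and 1 was lower, while the counts over all 14851 tested genes moved the same way, from 2743 to 5250 higher and from 2819 to 1090 lower. Without Unloading 2, 11 were higher and 3 lower, and without Reloading 1, 14 of 53 were higher and 7 lower. Without Control 2 and Reloading 1, 14 of 53 were higher and 7 lower.

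Of 15 partners of dysferlin and scaffold genes of repair, 9 were higher in Reloading than in Unloading and 1, Ano5, was lower, against 18.5% and 19.0% of all tested genes, and Ahnak, Bin1, Capn1, Capn3 and Capns1 were not called. Trim72 (chromosome 7, 128003949 to 128011033), also called MG53, which brings vesicles to the tear and binds dysferlin and caveolin-3, had 144 and 151 CPM in Unloading and 289, 298 and 284 CPM in Reloading. The Control libraries lay between, at 182 to 219 CPM. Its log2FC was 0.98 ± 0.087 (SE, adjusted p 1.24e-06) in Reloading against Unloading, -0.45 ± 0.082 (adjusted p 0.00430) in Unloading against Control and 0.53 (adjusted p 2.68e-05) in Reloading against Control. Ahnak2, a large scaffold protein related to Ahnak, had 5.54 and 6.50 CPM in Unloading and 15.7, 10.5 and 8.74 CPM in Reloading (log2FC 0.93 ± 0.21 SE, adjusted p 0.00318). Ehd2 (0.84), Capn2 (0.59), Ehd1 (0.49), Cavin1 (0.41), Ano6 (0.40), Cav3 (0.40) and Cavin4 (0.27) were also higher in Reloading than in Unloading (log2FC). Ehd2, Capn2 and Cavin1 kept their call in all 14 alternatives, Ano6, Cav3 and Ehd1 in 13 and Cavin4 in 12. Cavin4 was not called without Reloading 2 (0.22, adjusted p 0.0757 in edgeR). Without Unloading 2 the log2FC was 0.26 for Ano6 and 0.17 for Cavin4. Without Unloading 1 it was 0.29 for Cav3 and 0.34 for Ehd1.

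Ano5, a membrane protein whose loss causes a muscular dystrophy that resembles dysferlin deficiency, went the other way. Ano5 (chromosome 7, 51511029 to 51598709) had 256 to 319 CPM in Control, 263 and 252 CPM in Unloading, and 139, 154 and 169 CPM in Reloading. Reloading lay below every other library, with a log2FC of -0.74 ± 0.098 (SE, adjusted p 4.35e-05) against Unloading and -0.90 ± 0.085 (adjusted p 1.07e-06) against Control, and it was the only gene of the wider list still called lower in Reloading against Unloading with library totals only. The muscle fibre genes listed above were lower in the same libraries, and their part was not tested.

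Other parts of the repair machinery moved less evenly. Of 16 genes of the ESCRT complexes and ALIX, which pinch off damaged membrane, 1 was higher in Reloading than in Unloading (Pdcd6ip, encoding ALIX itself, 0.50) and 7 were lower, all of them Chmp or Vps4a subunits, against 18.5% and 19.0% of all tested genes. With library totals only, 4 were higher and 0 lower, and over all tested genes 5250 and 1090. Without Unloading 2 only Chmp1a was still called lower, and without Control 2 and Reloading 1 the lower calls fell to 3. Of 6 genes of vesicle fusion, Vamp8 (-0.52 ± 0.11 SE, adjusted p 0.00232), a SNARE, and Mcoln1 (-0.40 ± 0.090, adjusted p 0.00275), a lysosomal calcium channel, were lower. Neither was called with library totals only, nor was Vamp8 without Unloading 2 (-0.36, adjusted p 0.0643). Of the other ferlins Myof (0.62) and Fer1l5 (0.58) were higher. Among the other S100 genes S100a6 (0.51) was higher and S100a1 (-0.40) lower, and 0 of 2 other annexins, Anxa3 and Anxa8, were called. Myof kept its call in 13 of 14 alternatives, and Fer1l5, S100a6 and S100a1 in 12 each. Fer1l5 was not called with DESeq2 (adjusted p 0.0523), nor S100a1 in edgeR with library totals only (-0.15, adjusted p 0.164).

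Of the genes of the plasminogen system, which acts on the Anxa2 and S100a10 complex, Plaur gave the largest called difference of the wider list. Plaur (chromosome 7, 24462484 to 24475968), the urokinase receptor, had 0.749 and 1.04 CPM in Unloading and 4.59, 4.27 and 2.32 CPM in Reloading, with log2FC values of 2.01 ± 0.33 against Unloading (adjusted p 0.000255) and 2.13 ± 0.28 against Control (adjusted p 2.57e-05). All 3 Reloading libraries lay above the other 6, with Reloading 3 the lowest of them. The activators Plat (0.59, adjusted p 0.0583) and Plau (-0.22, adjusted p 0.283) were not called in Reloading against Unloading.

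**Figure D5:**
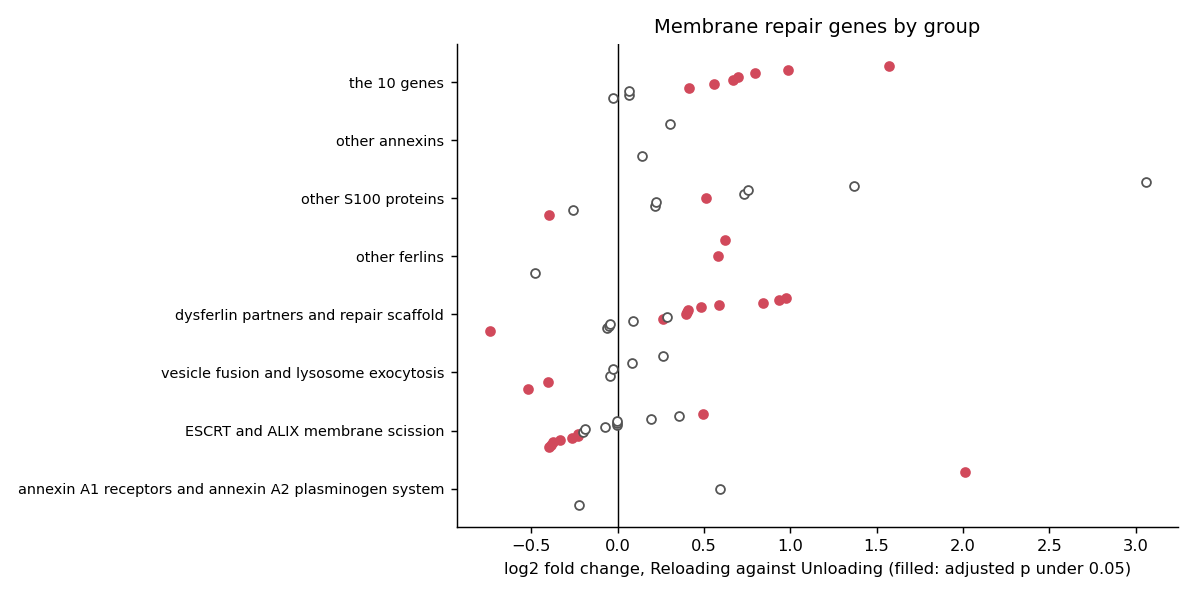
Log2FC in Reloading against Unloading of the 10 genes and of the wider list by group of genes, filled where the adjusted p was under 0.05. The repair scaffold lies mostly to the right of 0 with Ano5 (-0.74) on the left, the filled ESCRT genes lie left of 0 except Pdcd6ip (0.50), and Plaur (2.01) lies furthest right among filled points.

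In Unloading against Control the wider list had 5 of 54 genes higher and 1 lower, Trim72, against 4.40% and 5.50% of all tested genes. By size, the higher genes were Ahnak, Cavin4 and Ist1, then Mcoln1 and Capn2. Ahnak (chromosome 19, 8989284 to 9076914), a very large scaffold protein that binds S100a10 and Anxa2, had 361, 275, 310 and 328 CPM in Control, 552 and 383 CPM in Unloading, and 605, 516 and 588 CPM in Reloading. Its Unloading libraries differed widely yet both exceeded Control (log2FC 0.56 ± 0.13 SE, adjusted p 0.0129). Cavin4, a caveolar coat protein of muscle, was 0.37 higher (adjusted p 0.00709) and Ist1, an ESCRT component, 0.31 higher (adjusted p 0.0290) on the log2 scale. The number of genes called higher was 2 without Control 1 or Control 3 and 3 without Control 4. Without Unloading 1, edgeR called 0 of the 54 genes (8 higher and 1 lower at an unadjusted p under 0.05), and the calls over all genes fell from 1470 to 121. Ahnak (0.27, adjusted p 0.354), Cavin4 (0.29, adjusted p 0.162) and Trim72 (-0.41, adjusted p 0.0999) lost their call there and kept it in the other 14 of 15 alternatives. Ist1 lost its call in 5, among them the fit without Control 2 and Reloading 1 (0.31, adjusted p 0.0606), Mcoln1 in 10 and Capn2 in 12, both also with library totals only (adjusted p 0.0502 and 0.0645).

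In Reloading against Control 18 of the 54 genes were higher and 9 lower, against 22.1% and 21.3% of all tested genes. With library totals only, 31 were higher and 4 lower, and over all tested genes 6028 and 1484 in place of 3287 and 3169. DESeq2 called 16 higher and 6 lower. Of the lower calls, Capn3 and Snap23 were lost in 12 of 16 alternatives, Smpd1 in 11, and Chmp2a and Chmp5 in 1 each. Of the higher calls, Plat and S100a13 were lost in 5 and S100b in 1. After Plaur, Ahnak2 had the largest rise, from 5.16 ± 0.732 (SD, n = 4) to 11.6 ± 3.63 CPM (SD, n = 3), with a log2FC of 1.16 ± 0.18 (SE, adjusted p 0.000130), followed by S100b, a protein of Schwann cells, from 0.539 ± 0.171 to 1.18 ± 0.213 CPM (SD), with a log2FC of 1.13 ± 0.33 (SE, adjusted p 0.0127), not called with DESeq2 (adjusted p 0.0680). Of 5 Schwann cell markers 4 were higher in Reloading than in Control, with a summed level of 37.6 to 58.2 CPM in Control and 93.6 to 130 CPM in Reloading, and their part in the S100b value was not tested. The largest fall was that of the ferlin Fer1l6, from 4.64 ± 0.400 to 2.15 ± 0.792 CPM (SD), by 1.09 on the log2 scale (adjusted p 0.00158), followed by Ano5 and Vamp8 (-0.73, adjusted p 2.93e-05).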

How the data were processed

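The authors aligned reads with STAR 2.7.3a to GRCm38.p6 and used featureCounts 2.0.3 without strand to count the pairs of each gene of the Ensembl release 102 annotation. The deposited table holds raw counts, unfiltered, and each gene's summed exon length. The labels give paired-end libraries and the methods single reads. The authors' DESeq2 tables hold fold changes and p-values, which were not used, and a mean signal per gene; the deposited tables served here only to pair gene identifiers with symbols.

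The 10 genes, the wider list, the markers and the naming rule were chosen with earlier results of these data known. A gene of the wider list is not reported here. By the naming rule, genes of the wider list were named per comparison as the up to 3 called genes with the largest change in each direction. Other genes of the wider list or the markers that are singled out were chosen after their values were seen. Genes were filtered with filterByExpr (minimum count 10, minimum total 15), scaled by TMM and tested in edgeR 4.0.16 (R 4.3.3) in a single quasi-likelihood fit of all 9 libraries with group as the only term, two-sided. Benjamini-Hochberg adjustment ran over the 14851 tested genes of each comparison (threshold 0.05); log2 CPM used a prior count of 2. SE are derived from the F statistic. The partner ratios were compared by exact two-sided permutation tests. The procedure was tested on simulated data.

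Deviations from the group means were correlated between same-numbered libraries. With the numbers of the sample descriptions, r was 0.361, 0.143 and 0.155 for Control and Reloading and 0.0172 to 0.0752 for pairs with Unloading. With those of the titles r was -0.201 to 0.0752. The 0.361 joined Control 2 and Reloading 1, which both held skin transcripts. Control 1, of another description number, reached 0.106 and 0.117 with Reloading 2 and 3. These values do not establish that the libraries were paired. Alternatives were DESeq2 1.42.0, other scalings and filters, replicate blocks, and fits without a library.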

Additional observations from a re-analysis of the deposited data

How the results depend on the processing

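All 7 calls in Reloading against Unloading and all 9 in Reloading against Control held in every alternative. In Reloading against Control, the replicate block by description number changed no call (Anxa2 1.46, Dysf 1.06). In Unloading against Control, the number of genes called higher was 1 without Unloading 1 and 1 without Unloading 2, which each cost the call of Anxa4; the replicate block by title number gave Anxa4 0.43 (adjusted p 0.0591). Anxa11 passed in that comparison with the replicate block by title number (0.36, adjusted p 0.0416) or description number (0.37, adjusted p 0.0105).

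The sign changed only for log2 fold changes near 0. In Reloading against Unloading, Anxa7 was 0.22 with library totals (adjusted p 0.0451), 0.0146 with the block by title number and -0.106 to 0.0454 with a single library left out (0.0175 without Reloading 3), and Anxa11 was -0.0733 with the block by description number and 0.31 with library totals (adjusted p 0.0142). In Unloading against Control, Anxa2 was -0.154 to 0.0247 with a single library left out, the highest without Control 2, and 0.0263 without Control 2 and Reloading 1, Anxa5 was -0.0488 and -0.0190 with the blocks by title and description number, Anxa6 was 0.00497 with no filter and -0.0907 to 0.0261 with a single library left out, and S100a11 was -0.0201 with the block by title number. The cause was not tested. As raw counts, with no length correction, the S100a10 to Anxa2 ratio was 0.519, 0.509 and 0.274 and the S100a11 to Anxa1 ratio 0.486, 0.457 and 0.708 in Control, Unloading and Reloading.

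Unloading rests on 2 libraries. S100a11 had the fewest counts, at least 63 per library.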

Other observations

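The formyl peptide receptors, through which secreted annexin A1 acts on leukocytes, were almost without counts. Fpr1 and Fpr2 had 2 read pairs each and Fpr3 had 1 over the 9 libraries, and Plg, encoding plasminogen, had 2. S100a8 and S100a9, the calprotectin subunits of neutrophils, had 78 and 98 pairs in all. S100a8 had 7 and 6 pairs in Unloading and 3, 9 and 17 in Reloading, with a log2 fold change of 0.73 in Reloading against Unloading (adjusted p 0.570 in edgeR's quasi-likelihood test). S100a9 had 4 and 7 pairs in Unloading and 8, 5 and 25 in Reloading (log2 fold change 1.37, adjusted p 0.251). In Control 1 to 4, S100a8 had 21, 8, 0 and 7 pairs and S100a9 had 26, 11, 2 and 10. Neither was called in Reloading against Control (log2 fold change -0.21 and -0.27, adjusted p 0.837 and 0.764 in the same test).

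Anxa3 and Anxa8 were the other annexins with enough counts to be tested. Anxa3 had 11.7 CPM on average in Control, 16.7 in Unloading and 18.2 in Reloading, and was higher in Reloading than in Control (log2 fold change 0.64, adjusted p 0.00426). Anxa8 had 11, 77, 12 and 28 pairs in Control 1 to 4, and the library with 77 pairs was Control 2, which held skin transcripts. Without Control 2 and Reloading 1, Anxa8 was called higher in Unloading than in Control, and both Anxa3 and Anxa8 were called higher in Reloading than in Control. The part of the skin transcripts was not tested.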
